A study of Mus musculus with 52 samples.

Results

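The immunoglobulin heavy chain variable genes (Ighv genes) were the 98 genes of the table of 32 tumors whose biotype was IG_V_gene and whose symbol began with Ighv, of 27525 genes in all. The tumors were KPC tumors, grown under the skin of the flank of male C57BL/6NHsd mice aged 8 to 10 weeks from cells of mouse pancreatic tumors that carry Trp53 LSL.R172H/+ with Pdx1-Cre. Pdx1-Cre acts in pancreatic epithelium, so the tumor cells carried this mutant allele in every group while the lymphocytes came from the host. Of 4 groups of 8 individual tumors, the first was left untreated, another was given the STING agonist ADU-S100 (2 µg, injected once into the tumor), another the antibody 4H8, which activates LTβR (anti-LTβR, 100 µg into the peritoneum, 4 doses), and the last both agents (combination). Tumors were resected on day 14 and poly(A) RNA was sequenced as 1 stranded library per tumor, so each value is a normalized count of a whole tumor. The design asks whether Ighv transcripts, and the choice of genes among them, differed between treated and untreated tumors.

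A B cell joins 1 V gene to a D and a J segment of the heavy chain locus, and the joined exon is transcribed with a constant gene as heavy chain mRNA. Daughter cells keep that V gene, so a family of cells derived from 1 founder adds transcripts of the same Ighv gene. Plasma cells, which secrete antibody, hold far more heavy chain mRNA per cell than resting B cells. In whole tumors, more cells of a type and more RNA per cell cannot be told apart.

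The germline sequences are shown because related Ighv genes are so alike that a short read can match several of them. Shown first are the last 300 bases of the coding parts, intron removed, of the 3 genes with the highest mean counts (Ighv1-26, Ighv1-69 and Ighv3-6), each written 5′ to 3′ from the GENCODE M21 annotation of GRCm38. They run from base 52 to 351 of the coding part (51 to 350 in Ighv3-6). Capitals mark the motif TATTACTGTGC, which holds the TGT codon of the conserved cysteine that ends the V region framework. It was taken from Ighv1-26, searched in the whole coding part on both strands, and found on the coding strand in 45 of 98 members (45.9%) and on the other strand in 0.
Ighv1-26: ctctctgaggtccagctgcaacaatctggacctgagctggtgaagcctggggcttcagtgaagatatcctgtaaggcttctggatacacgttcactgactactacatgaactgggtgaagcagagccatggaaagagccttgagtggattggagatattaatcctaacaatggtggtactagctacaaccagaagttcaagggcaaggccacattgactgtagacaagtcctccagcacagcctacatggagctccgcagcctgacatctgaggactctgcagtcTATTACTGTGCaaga
Ighv1-69: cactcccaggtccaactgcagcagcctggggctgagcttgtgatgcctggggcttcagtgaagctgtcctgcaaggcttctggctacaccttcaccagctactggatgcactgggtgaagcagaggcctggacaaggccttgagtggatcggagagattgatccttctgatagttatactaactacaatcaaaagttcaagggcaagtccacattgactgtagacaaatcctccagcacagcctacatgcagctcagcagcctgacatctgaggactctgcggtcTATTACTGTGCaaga
Ighv3-6: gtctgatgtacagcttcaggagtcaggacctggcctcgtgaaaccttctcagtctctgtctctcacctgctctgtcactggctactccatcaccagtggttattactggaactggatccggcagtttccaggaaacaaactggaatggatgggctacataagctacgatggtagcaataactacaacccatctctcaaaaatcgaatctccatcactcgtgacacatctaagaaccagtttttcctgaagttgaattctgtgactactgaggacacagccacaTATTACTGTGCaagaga

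All Ighv genes shown lie on the minus strand of chromosome 12 (GRCm38). Ighv1-26 lies at chr12:114788372-114788805, Ighv1-69 at chr12:115623161-115623595 and Ighv3-6 at chr12:114288152-114288582. The next sequences, also bases 52 to 351, are close relatives that the results name too. In Ighv1-22, Ighv1-34 and Ighv1-19 the capitals mark bases that differ from Ighv1-26 (11, 11 and 12 of the 300 bases). In Ighv1-59 and Ighv1-50 they mark bases that differ from Ighv1-69 (8 and 9 bases). Over the whole coding part of 351 bases the identity was 96.6%, 96.6% and 96.3% to Ighv1-26 and 96.9% and 97.2% to Ighv1-69.
Ighv1-22: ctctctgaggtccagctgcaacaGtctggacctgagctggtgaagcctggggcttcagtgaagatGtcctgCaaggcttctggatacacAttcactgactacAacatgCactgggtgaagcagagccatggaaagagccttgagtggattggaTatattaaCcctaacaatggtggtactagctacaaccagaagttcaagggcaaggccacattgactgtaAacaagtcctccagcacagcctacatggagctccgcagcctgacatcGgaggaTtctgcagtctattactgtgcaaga
Ighv1-34: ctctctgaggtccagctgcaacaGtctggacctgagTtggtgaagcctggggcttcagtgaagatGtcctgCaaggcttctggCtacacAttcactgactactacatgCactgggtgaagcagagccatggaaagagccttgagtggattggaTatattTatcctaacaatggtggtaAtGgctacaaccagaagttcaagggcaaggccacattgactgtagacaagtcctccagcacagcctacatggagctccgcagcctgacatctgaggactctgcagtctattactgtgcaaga
Ighv1-19: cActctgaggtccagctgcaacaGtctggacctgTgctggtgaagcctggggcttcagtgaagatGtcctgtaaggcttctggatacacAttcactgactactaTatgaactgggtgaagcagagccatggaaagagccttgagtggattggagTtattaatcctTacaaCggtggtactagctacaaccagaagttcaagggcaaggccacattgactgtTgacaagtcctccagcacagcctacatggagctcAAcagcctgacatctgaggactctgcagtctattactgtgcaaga
Ighv1-59: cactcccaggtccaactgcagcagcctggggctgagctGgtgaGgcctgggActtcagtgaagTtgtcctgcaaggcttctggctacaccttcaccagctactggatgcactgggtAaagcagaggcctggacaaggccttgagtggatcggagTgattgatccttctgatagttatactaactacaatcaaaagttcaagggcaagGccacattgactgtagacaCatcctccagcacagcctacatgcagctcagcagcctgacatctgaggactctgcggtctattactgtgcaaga
Ighv1-50: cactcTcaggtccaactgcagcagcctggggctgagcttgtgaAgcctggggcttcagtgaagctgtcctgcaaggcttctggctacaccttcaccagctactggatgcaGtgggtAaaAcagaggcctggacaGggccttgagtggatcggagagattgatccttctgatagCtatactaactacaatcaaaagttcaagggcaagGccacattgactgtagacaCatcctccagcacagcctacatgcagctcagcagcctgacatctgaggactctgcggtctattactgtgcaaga

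Ighv1-22 lies at chr12:114746273-114746706, Ighv1-34 at chr12:114851190-114851660, Ighv1-19 at chr12:114708648-114709135, Ighv1-59 at chr12:115335082-115335514 and Ighv1-50 at chr12:115119748-115120219. Over all 98 members the median identity to the closest member was 94.7% (74.0% to 99.7%), and the closest member belonged to the same family for 93. At least 95% identity to another member was reached by 45 members, and 55 shared an unbroken stretch of 75 bases with another member. In the deposited values, reads that match several genes were split. Between 0.5 and 100 reads, 44.9% of the members' values were not within 0.05 of a whole read, against 29.4% for all genes. The count of a single Ighv gene is therefore uncertain where it has close relatives.

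Ighv transcripts were most abundant in tumors given anti-LTβR, alone or with ADU-S100, and varied widely within each group. The summed normalized count of the 98 genes was 5403 ± 3896 in untreated tumors (SD, n = 8), with a lowest value of 1030, a median of 4742 and a highest of 11754. In ADU-S100 tumors it was 3246 ± 1289 (835.4, 3675 and 4751). No ADU-S100 sum passed 4751, which 4 untreated tumors did, and tumor 2 of the ADU-S100 group was below every untreated tumor.

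In anti-LTβR tumors the sum was 13587 ± 11335 (SD, n = 8), with 2874, 10110 and 36909 as lowest, median and highest. In combination tumors it was 18688 ± 13508 (5859, 15858 and 47923). Of the 8 combination tumors, 5 exceeded every untreated tumor, as did 4 of the 8 anti-LTβR tumors, and the groups overlapped in each comparison. The untreated tumors are shared by the comparisons with each treated group, which are therefore not independent of each other.

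On the log2 scale the mean sum was higher than in untreated tumors by 1.92 in the combination group (3.77-fold in geometric means) and by 1.31 in the anti-LTβR group (2.48-fold). It differed by -0.47 in the ADU-S100 group. The combination group exceeded the anti-LTβR group by 0.60 (1.52-fold). The SD between tumors within groups was 1.14 on this scale for combination against untreated tumors, so 1 tumor says little about its group. Without the highest tumor of each group these differences were 1.90, 1.26, -0.35 and 0.64. As a sum over genes chosen with earlier results known, these differences carry no p-value.

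**Figure D1:**
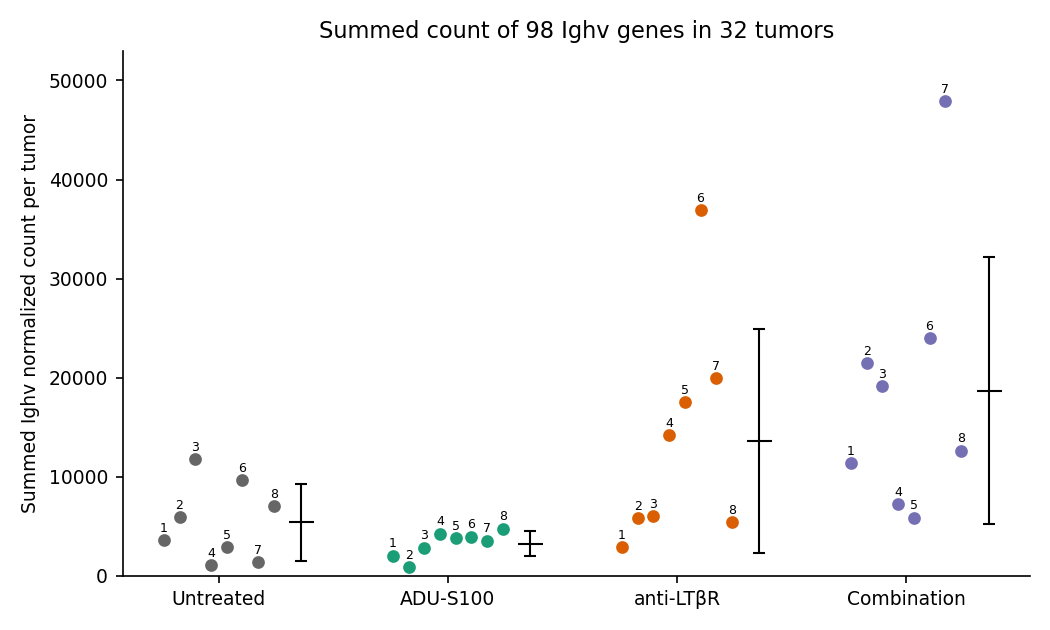
Summed normalized count of the 98 Ighv genes (vertical axis, linear scale) in each of the 32 tumors, by treatment group. Points are tumors labelled by number, and the black marks give mean ± SD. Combination sums run from 5859 to 47923 and untreated sums from 1030 to 11754, with overlap between the groups.

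The heavy chain constant genes encode the stem of the antibody and are read from the same transcript as the V gene. Their summed count had medians of 15681, 12194, 42473 and 64982 in untreated, ADU-S100, anti-LTβR and combination tumors. For every 100 constant counts there were 27.9 ± 4.34, 26.4 ± 3.10, 25.6 ± 3.23 and 25.95 ± 3.45 Ighv counts (SD, n = 8 each), and all 32 tumors lay between 19.1 and 33.3. The Ighv sum and the constant sum thus moved together over tumors whose Ighv sums ran from 835.4 to 47923.

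**Figure D2:**
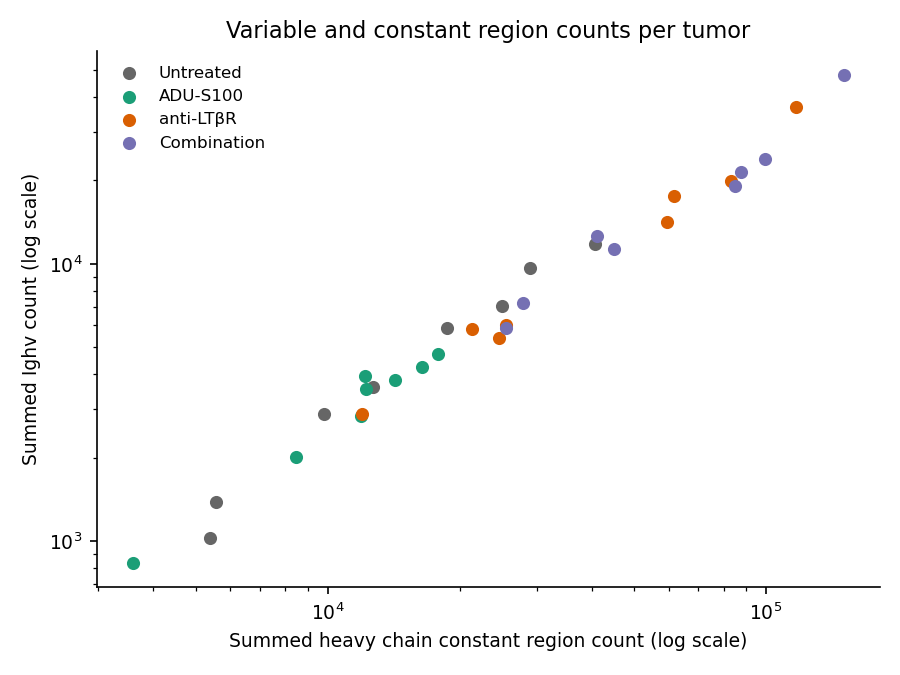
Summed count of the 98 Ighv genes (vertical axis) against the summed count of the 8 heavy chain constant genes (horizontal axis) for each tumor, both in normalized counts on log scales and marked by group. The tumors lie along a line, with 19.1 to 33.3 Ighv counts per 100 constant counts.

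Ighv usage was spread over many genes, and the leading gene changed from tumor to tumor. The 12 genes with the highest means held 40.5% of the mean Ighv count, and 17 genes made up 50% of it. Ighv1-26 had the highest mean, with a median share of 5.70% of a tumor's Ighv counts and a share of at least 5% in 18 of 32 tumors. At 3 counts or more, 32 members were found in all 32 tumors, and 0 members stayed below 3 counts in every tumor. Coding lengths ran from 347 to 394 bases, and the leading gene per base of coding length was the same in 32 of 32 tumors.

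In the 32 tumors, 20 different genes held the top place. Ighv1-26 led in 4 tumors (untreated 3, anti-LTβR 2 and 6 and combination 1). Ighv9-3, Ighv5-17 and Ighv1-19 each led in 3. Ighv1-69, Ighv1-55 and Ighv1-50 each led in 2, and 13 genes led in 1 tumor each.

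The share of a tumor's Ighv counts held by its highest gene was 13.8% ± 7.28 in untreated tumors (SD, n = 8; lowest 9.10%, median 11.8%, highest 31.3%). It was 11.7% ± 3.31 in ADU-S100 tumors (7.06%, 12.6% and 15.7%). It was 9.86% ± 5.64 in anti-LTβR tumors (6.67%, 7.89% and 23.3%) and 11.9% ± 4.22 in combination tumors (6.59%, 11.5% and 20.3%). The ranges overlapped in all 4 groups, and the means differed by less than the SD of the untreated group.

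The highest shares were reached by different genes in different tumors. In untreated tumor 5, Ighv3-6 held 31.3% (95% Wilson interval 29.6% to 32.9%, counting error only) with 900.2 counts. In anti-LTβR tumor 3, Ighv1-50 held 23.3% (22.3% to 24.4%) with 1405 counts. In combination tumor 3, Ighv1-69 held 20.3% (19.7% to 20.8%) with 3871 counts. The next genes of these tumors were Ighv2-9-1 with 11.5%, Ighv1-64 with 8.92% and Ighv1-19 with 8.87%. Ighv1-50 and Ighv1-69 are close relatives, while Ighv3-6 belongs to another family.

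Lower but still at 15% or more were both ADU-S100 cases. Ighv1-34 held 15.7% (14.6% to 16.9%) in tumor 5, and Ighv1-50 held 15.1% (13.97% to 16.3%) in tumor 6. At least 10% was reached by the highest gene of 18 tumors.

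**Figure D3:**
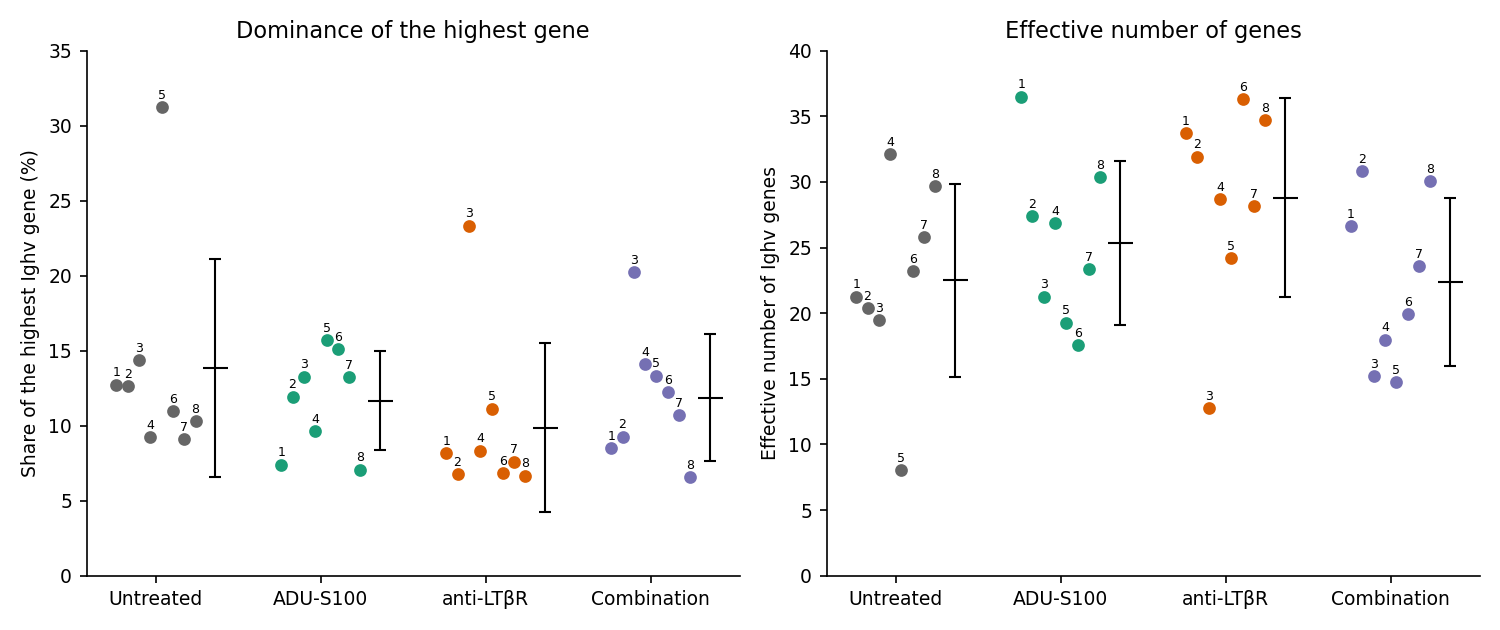
Left, share of a tumor's summed Ighv count held by its highest gene (percent). Right, effective number of Ighv genes (inverse Simpson index of the shares). Points are the 8 tumors of each group, labelled by number, and the black marks give mean ± SD. Untreated tumor 5 (31.3%) and anti-LTβR tumor 3 (23.3%) stand above their groups on the left.

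The effective number of Ighv genes, the inverse Simpson index of the shares, counts how many equally used genes would give the same spread. It was 22.5 ± 7.37 in untreated tumors (SD, n = 8; 8.03 to 32.1) and 25.3 ± 6.26 with ADU-S100 (17.6 to 36.5). With anti-LTβR it was 28.8 ± 7.60 (12.8 to 36.3) and with both agents 22.4 ± 6.38 (14.7 to 30.8). The groups overlapped widely. The number of genes with at least 3 counts was 68.2 ± 8.43, 70.9 ± 8.17, 83.4 ± 4.31 and 79.6 ± 3.78 in the same order, at unequal Ighv depth. Thinned to 842 Ighv reads per tumor, the expected number of genes was 69.3 ± 5.04, 74.3 ± 4.09, 74.1 ± 5.10 and 66.5 ± 4.503. Combination tumors, second by the count of genes with at least 3 counts, had the lowest mean at equal depth, with ranges that overlap (61.5 to 73.9 in combination and 63.1 to 76.2 in untreated tumors).

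Many genes took a high share in 1 or a few tumors. A gene's share was at least 5% in 119 gene and tumor pairs over 43 members, and 21 of these members reached 5% in exactly 1 tumor. A peak was counted where a share was at least 5% and at least 5 times the gene's median share over the 32 tumors. There were 51 peaks in 26 tumors over 36 genes, with a median of 10.1 times the median share. Of these genes 26 peaked in 1 tumor, 5 in 2 tumors and 5 in 3 tumors (Ighv1-59, Ighv1-77, Ighv14-3, Ighv2-9-1 and Ighv5-17). Combination tumors held 23 of them, untreated 10, ADU-S100 10 and anti-LTβR 8.

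The steepest peak was Ighv1-34 in ADU-S100 tumor 5, where its share of 15.7% was 110 times its median share of 0.142%, and its next highest share in any tumor was 3.71%. Ighv9-2 held 12.7% of untreated tumor 1 (48.4 times its median share). Ighv1-77 held 12.6% of untreated tumor 2 (30.2 times), and also 9.97% of combination tumor 6 and 6.35% of anti-LTβR tumor 7. Ighv9-4 held 7.64% of combination tumor 1 (34.6 times). Peaks of this kind were thus found in untreated as well as in treated tumors. Over a whole group, at least 50% of a gene's total came from 1 tumor for 41 of the 98 members in the untreated group. The same held for 24 members with ADU-S100, for 45 with the antibody alone and for 34 in the combination group.

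**Figure D4:**
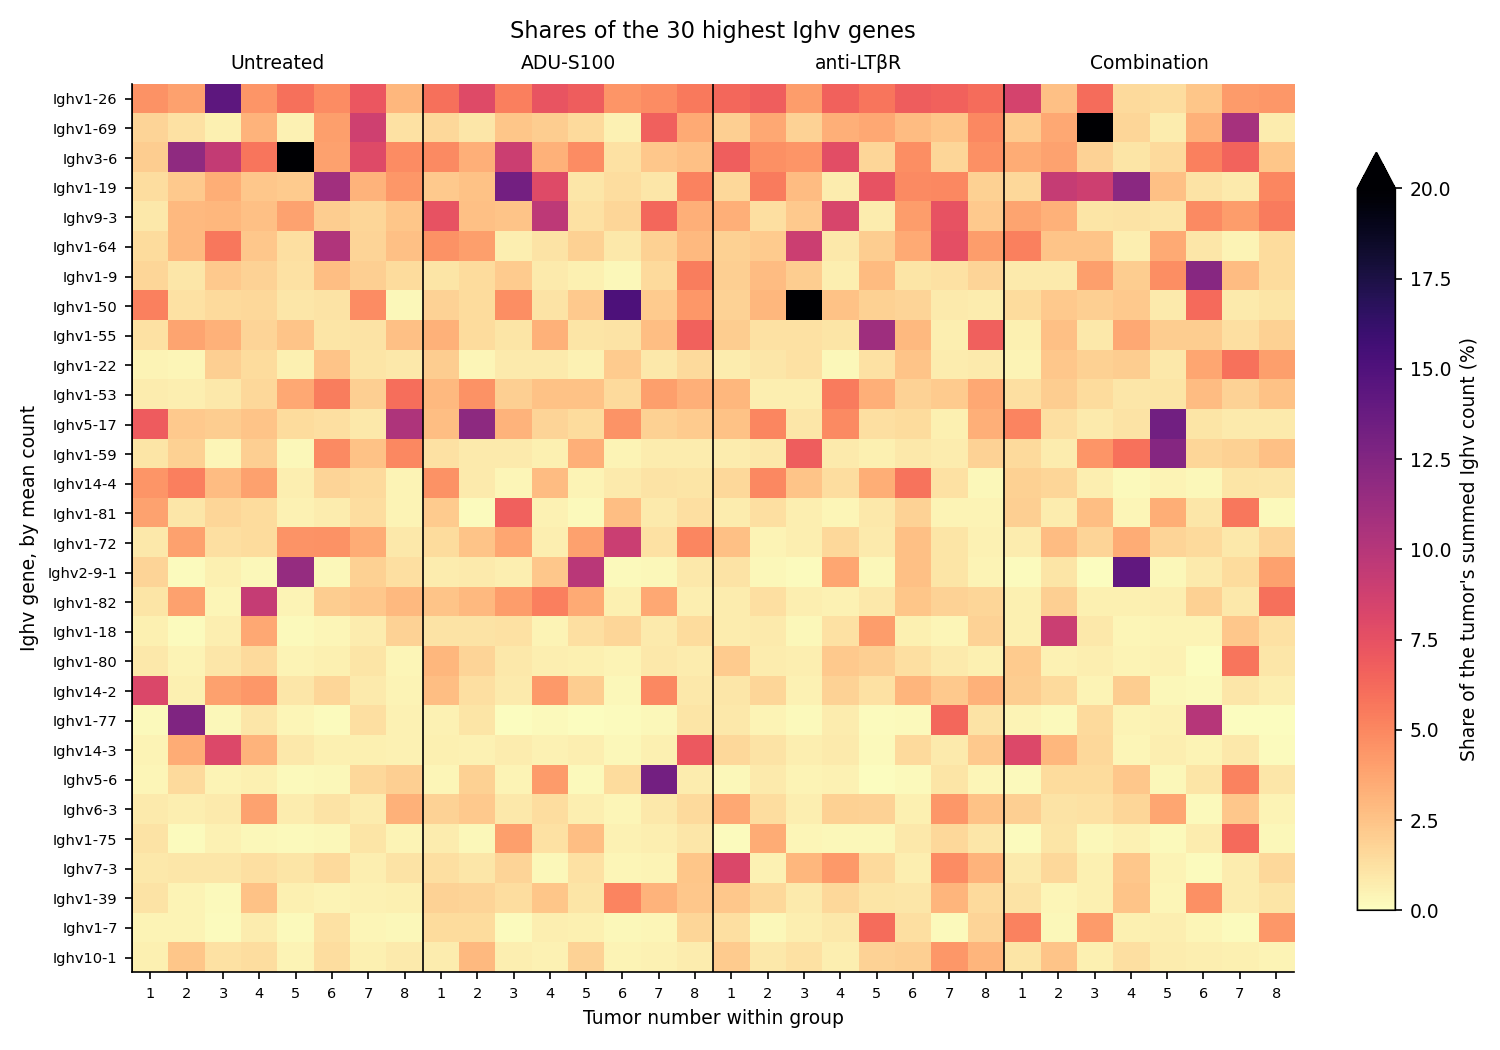
Share of each tumor's summed Ighv count (color, percent, capped at 20%) for the 30 Ighv genes with the highest mean counts (rows) in the 32 tumors (columns, by group). Darker cells are higher shares. The darkest cells differ in position from tumor to tumor, among them Ighv3-6 in untreated tumor 5 (31.3%) and Ighv1-69 in combination tumor 3 (20.3%).

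By family, 49 of the 98 members (50%) belonged to Ighv1, the largest family of the mouse locus. They held 56.5% ± 10.3 of the Ighv counts over the 32 tumors (34.0% to 76.0%), and 51.1% ± 12.04, 58.4% ± 7.37, 55.6% ± 10.7 and 60.8% ± 9.66 in untreated, ADU-S100, anti-LTβR and combination tumors. Family Ighv3 held 10.3% ± 9.63, 4.95% ± 2.26, 5.70% ± 3.26 and 3.86% ± 1.95 in the same order. The untreated mean leaned on tumor 5, where Ighv3-6 alone held 31.3%, and the untreated median was 7.69%. Along the locus, the 33 members nearest the D segments held 29.3% ± 7.56, the next 33 held 33.5% ± 6.81 and the farthest 32 held 37.1% ± 7.70. Each part of the locus was in use in all 4 groups.

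Gene by gene, 22 of the 98 members passed the test as higher in combination than in untreated tumors and 0 as lower (limma, Benjamini-Hochberg adjusted p below 0.05 over all genes and at least 2-fold). That is 22.4% of the members, against 4.72% of all genes called higher and 1.23% called lower. Without the fold threshold the members' counts were again 22 and 0, against 13.1% of all genes higher and 13.9% lower. At an unadjusted p below 0.05 limma gave 44 members, all higher, or 44.9% against 37.3% of all genes in either direction. The fitted change was above 0 for 91 members (52.7% of all genes), with a median log2 change of 1.53 for the members and 0.03 for all genes. For 0 members did the groups lie apart in either direction, against 2.95% of all genes lying apart as higher and 3.74% as lower. The called members were 14 of 49 in family Ighv1, 4 of 9 in Ighv5, 2 of 9 in Ighv2, 1 of 3 in Ighv6 and 1 of 4 in Ighv9.

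Ighv1-42 had the smallest adjusted p. Its counts in untreated tumors ran from 0 through a median of 7.88 to 15.6, and in combination tumors from 13.5 through 84.5 to 1612. Of the 8 combination tumors, 7 lay above every untreated tumor, though tumor 6 alone held 76.6% of the group's total. The log2 change was 3.79 (SE 0.763, limma adjusted p = 0.00127).

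Ighv1-39 ran from 6.70 through 26.9 to 40.2 in untreated and from 20.3 through 130 to 1108 in combination tumors, and again 7 of 8 exceeded every untreated tumor. Its log2 change was 2.54 (SE 0.580, limma adjusted p = 0.00318). Ighv5-4 ran from 3.01 through 21.1 to 96.1 in untreated and from 14.8 through 339 to 926.3 in combination tumors, with 6 of 8 above. It rose by 3.35 (SE 0.803, limma adjusted p = 0.00448).

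Ighv1-59 was spread more evenly than these genes. Untreated tumors ran from 7.97 through 38.9 to 475, and combination tumors from 153 through 416 to 926.3, and no tumor held more than 23.3% of the combination total. Only 3 of 8 combination tumors exceeded every untreated tumor, since 1 untreated tumor reached 475. The log2 change was 2.74 (SE 0.694, limma adjusted p = 0.00652).

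The other genes with the smallest adjusted p were Ighv1-7, Ighv5-9, Ighv1-15, Ighv2-9, Ighv1-22 and Ighv1-9, with log2 changes of 3.16, 3.64, 2.66, 3.28, 3.00 and 2.43. Of the 12 most abundant genes 6 were called. Besides Ighv1-22 and Ighv1-9 they were Ighv1-50 (2.09), Ighv1-69 (2.61), Ighv1-19 (2.07) and Ighv9-3 (2.05). The call of Ighv1-19 was lost with edgeR, with DESeq2 and in the joint fit of all 4 groups. With 1 tumor left out, the calls of Ighv1-69, Ighv1-19 and Ighv9-3 were each lost in 10 of 16 fits. Those of Ighv1-22, Ighv1-9 and Ighv1-50 were kept in all 16. Ighv1-69 ran from 15.6 through 71.6 to 391 in untreated and from 43.2 through 513 to 5139 in combination tumors, with 46.4% of the latter in 1 tumor. The highest tumors thus weighed heavily in the means of called genes.

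The other 6 of the 12 did not pass. Ighv1-26 ran from 45.8 through 192 to 1688 in untreated and from 80.8 through 563 to 1999 in combination tumors (log2 change 1.18, limma adjusted p = 0.238). Ighv3-6 ran from 59.2 through 361 to 1097 and from 75.4 through 374 to 3133 (0.55, limma adjusted p = 0.656). Ighv1-64, Ighv1-55, Ighv1-53 and Ighv5-17 had log2 changes of 1.11, 1.67, 1.69 and 1.33. The Ighv3-6 medians of the groups lay close together, and its SE of 0.775 leaves room for changes in either direction.

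The number of calls rested in part on single tumors and on the tool. It ran from 12 to 29 with each tumor left out in turn. It was 12 without untreated tumor 4, 13 without untreated tumor 5, 13 without combination tumor 3 and 14 without combination tumor 7, and it was 29 without untreated tumor 8. edgeR called 31 of 94 members (33.0%) higher and 0 lower, against 4.98% and 1.37% of all genes. DESeq2, which gave an adjusted p for 89 of the 94, called 37 (41.6%) higher and 0 lower, against 6.07% and 1.47% of all genes with an adjusted p.

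**Figure D5:**
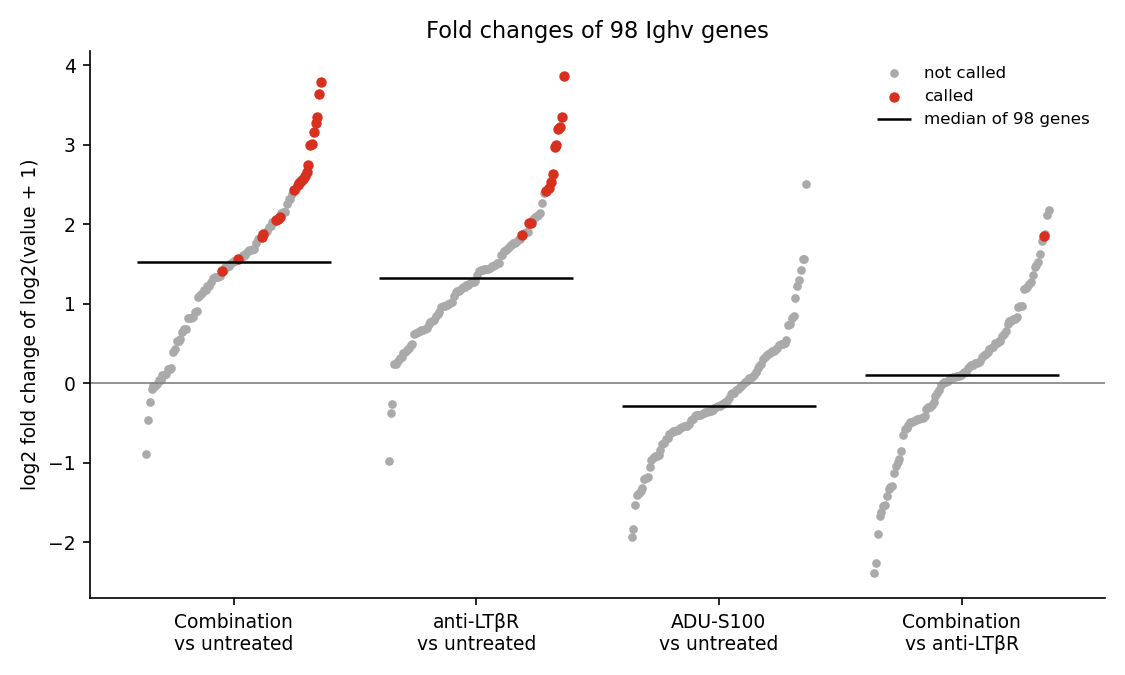
log2 fold change (limma, on log2 of count + 1) of each of the 98 Ighv genes in 4 comparisons. Each point is a gene, red points are called (adjusted p below 0.05 and at least 2-fold), and the line marks the median of the 98. The medians are 1.53 for combination against untreated, 1.32 for anti-LTβR against untreated, -0.29 for ADU-S100 against untreated and 0.11 for combination against anti-LTβR.

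In anti-LTβR against untreated tumors, 13 members were called higher and 0 lower (limma), or 13.3% of the members against 0.541% and 0.658% of all genes. Without the fold threshold the counts were again 13 and 0, against 3.57% and 3.97% of all genes. At an unadjusted p below 0.05 limma gave 37 members, all higher, or 37.8% against 24.4% of all genes in either direction. edgeR called 13 of 94 members (13.8%) higher and 0 lower, against 0.459% and 0.755% of all genes. DESeq2 called 25 of the 83 members with an adjusted p (30.1%) higher and 0 lower, against 0.979% and 1.09% of all genes with one. The fitted change was above 0 for 95 members (52% of all genes), with a median of 1.32 against 0.01 for all genes. Ighv1 gave 9 of the calls, Ighv2 gave 2, and Ighv3 and Ighv7 gave 1 each. Of the 12 most abundant genes only Ighv1-69 was called (2.02, limma adjusted p = 0.0470), and this call was lost with edgeR and in the joint fit. With 1 tumor left out, the call was lost in 12 of 16 fits.

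In this comparison the values did not overlap for 2 members, Ighv1-39 and Ighv1-49, both higher, against 0.501% of all genes apart as higher and 0.607% as lower. For Ighv1-49 the highest untreated and the lowest anti-LTβR tumor each held 1 read and differed only by the size factor, so its groups tied at 1 read. Ighv1-39 ran from 48.4 through 136 to 621 in anti-LTβR tumors, all above the untreated highest of 40.2. Its log2 change was 2.53 (SE 0.478, limma adjusted p = 0.00540). Ighv1-49 was nearly silent in untreated tumors, with 1.11 counts at most and a median of 0, and ran from 1.11 through 6.74 to 387 in anti-LTβR tumors. Its fitted change of 3.87 (SE 0.843, limma adjusted p = 0.0121) depends on the pseudocount and was 4.61 with 0.5, and 1 tumor held 63.4% of the group's total.

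Other called genes were Ighv2-6 (3.35), Ighv1-58 (2.42), Ighv3-4 (2.97), Ighv1-84 (3.23), Ighv7-3 (2.45), Ighv1-31 (3.20), Ighv1-20 (1.87) and Ighv2-9 (3.00), as log2 changes. Of these Ighv3-4, Ighv1-84, Ighv1-31 and Ighv1-20 averaged below 3 counts in untreated tumors, so their fold changes also depend on the pseudocount. Ighv2-6 is also near the floor, with a mean of 1.59 counts in the untreated tumors other than tumor 8. The call of Ighv2-9 was lost with edgeR and that of Ighv1-20 in the joint fit. Single tumors held 75.3% of the anti-LTβR total of Ighv2-6, 72.8% of that of Ighv1-31 and 67.9% of that of Ighv1-84. Ighv7-3 ran from 8.70 through 43.9 to 148 in untreated and from 29.3 through 246 to 951 in anti-LTβR tumors, with 7 of 8 above every untreated tumor. Calls fell to 6 without untreated tumor 1, anti-LTβR tumor 6 or anti-LTβR tumor 7, and to 7 without untreated tumor 4 or anti-LTβR tumor 4.

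In ADU-S100 against untreated tumors, 0 members were called in either direction by limma, against 0% of all genes. At an unadjusted p below 0.05 limma gave 7 of 98 members (3 higher and 4 lower), or 7.14% against 11.6% of all genes. edgeR gave 21 of the 94 members it tested (5 higher and 16 lower), or 22.3% against 10.9%, and DESeq2 gave 25 of 94 (6 higher and 19 lower), or 26.6% against 9.5%. After adjustment edgeR called 0 of 94 members, against 0% of all genes higher and 0.00362% lower. DESeq2 also called 0, against 0% of all genes in either direction, but gave an adjusted p for only 2 of the 94 members. The fitted change was above 0 for 35 members (48.6% of all genes), with a median of -0.29 for the members and -0.01 for all genes. The groups lay apart for 0 members in either direction, against 0.0254% of all genes as higher and 0.0145% as lower. Ighv1-26 ran from 66.5 through 173 to 308 in ADU-S100 tumors, within the untreated range.

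Between combination and anti-LTβR tumors, 1 member was called higher and 0 lower (1.02% of members, against 1.7% and 0.185% of all genes). Without the fold threshold the counts were again 1 and 0, against 6.5% and 7.5% of all genes. At an unadjusted p below 0.05 limma gave 8 of 98 members (4 higher and 4 lower), or 8.16% against 27.9% of all genes. edgeR gave 25 of 94 (14 higher and 11 lower), or 26.6% against 25.9%, and DESeq2 gave 23 of 94 (16 higher and 7 lower), or 24.5% for the members and for all genes alike. After adjustment, other fits called more members lower. The replicate block gave 2 higher and 2 lower, against 1.72% and 0.2% of all genes, and the joint fit of all 4 groups gave 0 higher and 2 lower, against 1.68% and 0.207%. edgeR gave 3 higher and 3 lower of 94 members, against 1.91% and 0.221% of all genes. DESeq2 gave 3 higher and 5 lower of the 87 members with an adjusted p, against 3.19% and 0.275% of all genes with one. The gene called by limma was Ighv1-59, at 20.8, 110 and 412 as lowest, median and highest in anti-LTβR tumors against 153, 416 and 926.3 in combination tumors. Its log2 change was 1.85 (SE 0.534, limma adjusted p = 0.0281), and 4 of 8 combination tumors exceeded every anti-LTβR tumor. The call was lost without combination tumor 3, 5 or 7 or without anti-LTβR tumor 2 or 8, and also in the joint fit of all 4 groups (limma adjusted p = 0.0592). Over all 24 alternatives the adjusted p of Ighv1-59 ran from 0.00235 to 0.0608 (limma, edgeR or DESeq2). For the 98 members the median change was 0.11, against 0.00 for all genes, and 60 were above 0 (50% of all genes). The groups lay apart for 0 members in either direction, against 0.905% of all genes as higher and 1.05% as lower.

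The effect of anti-LTβR with and without ADU-S100 was compared in a joint fit of all 32 tumors. The interaction passed an adjusted p of 0.05 for 3 members (limma), Ighv1-84 (-4.18), Ighv1-49 (-3.96) and Ighv1-59 (3.05), against 10.3% of all genes. The fitted anti-LTβR change of Ighv1-84 was 3.23 without and -0.95 with ADU-S100, that of Ighv1-49 was 3.87 without and -0.09 with it, and that of Ighv1-59 was 0.90 without and 3.94 with it. The tumors without anti-LTβR differed too. Leaving out each group's highest tumor, Ighv1-84 averaged 16.5 counts in ADU-S100 and 1.14 in untreated tumors. For Ighv1-49 these means were 3.04 and 0.145, near the floor, and for Ighv1-59 they were 22.5 and 86.1.

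The Ighv calls stood beside changes in genes of the antibody-producing lineage. In combination against untreated tumors, 4 of 8 constant genes rose (Igha 2.53, Ighg2c 2.16, Ighg2b 1.98 and Ighg1 1.56 on the log2 scale, limma), with a list median of 1.65. Igha encodes the heavy chain of IgA and the others those of IgG classes. Ighm, the IgM heavy chain, had a log2 change of 1.13 (limma adjusted p = 0.0715).

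Of 8 plasma cell markers 5 rose (Irf4, Jchain, Derl3, Tnfrsf17 and Mzb1) and 0 fell by this test, with a median of 1.68. Of the other members, Sdc1, a surface proteoglycan that epithelial cells also carry, was lower, with 13767 ± 1640 counts in combination and 18338 ± 1870 in untreated tumors (SD, n = 8 each; log2 change -0.42, limma adjusted p = 0.000811), short of the 2-fold threshold. Prdm1 and Xbp1 had log2 changes of 0.56 and 0.20. Of 8 B cell markers 4 rose, among them Cd22, Cd79a and Cd79b, with a median of 1.07. The summed count of the B cell markers ran from 133 to 406 in untreated tumors, 149 to 357 with ADU-S100, 260 to 786 with anti-LTβR and 335 to 1090 with both agents. Jchain, which links IgA and IgM into multimers, had 9384 ± 5847 counts in combination and 2071 ± 1368 in untreated tumors (SD, n = 8 each). Of the 7 B cell receptor partners 3 rose (Blk, Cd79a and Cd79b), and Pou2af1, the coactivator of octamer factors at immunoglobulin promoters, rose by 1.85. Of the 3 surrogate light chain genes Vpreb3 rose by 1.80. In anti-LTβR against untreated tumors the calls included Ighg3, Cd22, Irf4 and Tnfrsf17.

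None of the 9 recombination and editing genes or of the 5 germinal center markers passed this limma test, with medians of 0.12 and 0.05. Among 4 fibroblast markers 3 rose (median 1.53), and their sum ran from 57415 to 92270 in untreated and from 98647 to 364223 in combination tumors. Of 5 T cell markers 2 rose (Cd4 and Cd3e), 1 of 4 epithelial markers fell (Krt18) and 0 of 3 macrophage, 0 of 4 keratinocyte and 0 of 3 skeletal muscle markers passed. The epithelial marker Krt8 had 5024 ± 1021 counts in combination and 9520 ± 2014 in untreated tumors (SD, n = 8 each), less than 2-fold apart. Its groups did not overlap (highest 6218 against lowest 6998), as for 3.74% of all genes lying apart as lower. The mean of Krt19 was lower in combination tumors and that of Epcam higher. The macrophage markers Cd68, Csf1r and Adgre1 had log2 changes of 0.85, 0.60 and 0.37, with adjusted p of 0.000170, 0.000473 and 0.0211 (limma), and missed only the 2-fold threshold.

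The skeletal muscle markers (Ckm, Acta1 and Myh4) had a median log2 change of 1.47, close to the 1.53 of the Ighv genes, with adjusted p of 0.284 to 0.333 (limma). Their sum ran from 4211 through a median of 6553 to 91771 in untreated tumors and from 4808 through 75014 to 264834 in combination tumors. It ran from 5016 through 81425 to 125071 with anti-LTβR and from 5280 through 62811 to 172947 with ADU-S100, so the ranges overlapped. Against untreated tumors the median log2 change of these markers was 1.68 with anti-LTβR, where that of the Ighv genes was 1.32, and 1.59 with ADU-S100, where that of the Ighv genes was -0.29. In the same comparison of anti-LTβR with untreated tumors, 0 T cell, macrophage, epithelial, fibroblast and keratinocyte markers passed, with list medians of 0.45, 0.34, -0.33, -0.01 and -0.69. All lists were complete, with 0 genes at 0 in a whole group. The part of these other cell types in the Ighv results was not tested.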

How the data were processed

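RNA of individual tumors was measured as stranded, paired-end, poly(A) RNA-seq. The values the authors deposited for the 32 tumors are a signal, in which the reads estimated for a gene were scaled by the size factor of its library and reads shared between genes were split. Per the labels and methods, cutadapt 1.9 and FastQC preceded alignment, but whether HISAT2 with StringTie or STAR in Partek made each table was not settled. The larger deposited table (52 libraries, 27894 genes) was scaled alike. Its values are whole multiples of the worth of 1 read, so whole reads were recovered (100.0% whole within 0.01 reads, or indistinguishable from rounding where that worth lies near 1), 12762453 to 15591986 per tumor. It holds 94 of the 98 Ighv genes. Totals in the table of 32 tumors were 15443912 to 16759706. The authors' gene set table (enrichment scores, p-values and FDR) was not used. Per-sample columns left unused number 0.

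Each comparison used its own 16 libraries on the log2(count + 1) scale, tested by the trend method of limma 3.58.1 in R 4.3.3, dropping only genes at 0 throughout, with Benjamini-Hochberg adjustment over all genes. Fold changes are on that scale and understate low genes. The script was tested on simulated data. Sums, shares and effective numbers were described without a test. The members, lists and comparisons were chosen with earlier results of these data known. Named genes were the 12 with the highest means, the leading genes with at least 15% of a tumor, up to 10 called genes per comparison with the smallest adjusted p, and called list genes. Some items are not reported here. Share peaks, the families and genes flagged in the closing section were added after their values were seen. Promoters had been planned for display, and V coding sequences are shown instead. Gene positions and sequences are GRCm38 (GENCODE M21), matched by identifier for 98 of 98, since the deposited positions are of another build (mm39 per the labels).

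The alternatives were edgeR 4.0.16 and DESeq2 1.42.0 on recovered reads, other filters, a pseudocount of 0.5, a block for the replicate number, a fit of all 4 groups together, the FDR threshold without a fold, other definitions of the sums and shares, and each tumor left out in turn. The last, together with per-base shares, sums scaled to the library total and the interaction, was chosen after seeing the data. The sources count tumors and do not say whether each came from its own mouse, so p-values measure the spread between these tumors. The study's text speaks of a single experiment in one place and of combined experiments in another. The labels give no experiment within the 32 tumors, so no batch term could be fitted.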

Additional observations from a re-analysis of the deposited data

Results flagged for a closer look

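A tumor was picked out where its gap to the nearest other tumor of its group was too large a part of the group's range by Dixon's criterion for 8 values. Genes were compared on the log2(count + 1) scale, and sums and shares on their own scale. Of 144 groups of 8 tested, 12 were picked out, and chance picks out about 5%.

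For whole tumors, the summed Ighv count of combination tumor 7 was 47923, with 23953 as the next highest. On the log2 scale its gap was 0.330 of the group's range, and no tumor of any group passed the criterion for the sum on that scale. The highest gene held 31.3% of untreated tumor 5, with 14.4% next, and 23.3% of anti-LTβR tumor 3, with 11.1% next. The 5 highest genes of anti-LTβR tumor 3 held 47.7%, with 35.9% next.

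For single genes, Ighv1-34 had 260.8 counts in untreated tumor 8 (next 12.2). Ighv2-6 had 38.1 in untreated tumor 8 (next 4.07), 518 in anti-LTβR tumor 5 (next 52.4) and 0 in ADU-S100 tumor 5, where 3.29 was the next lowest. Ighv1-49 had 35.8 in combination tumor 6 (next 3.94). In combination tumor 4, Ighv1-84 had 39.1 (next 7.75) and Ighv1-64 had 49.1, where the next lowest was 185. Ighv1-58 had 0 in ADU-S100 tumor 2, with 5.51 as the next lowest.

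The anti-LTβR effect with against without ADU-S100 differed by the interaction term (limma) for Ighv1-84 (-4.18, adjusted p = 0.0135), Ighv1-49 (-3.96, adjusted p = 0.0264) and Ighv1-59 (3.05, adjusted p = 0.0328).

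The other experiment in the larger table entered no comparison. In that table the highest untreated Ighv sum was 11843. Above it were 2 of 15 libraries whose labels contradict each other, at 46444 and 35560, and 3 of 5 libraries labelled combination throughout, at 20689, 19761 and 34949. For the former 2 libraries one label names anti-LTβR and another the combination, so they were placed in no group.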

How the results depend on the processing

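Apart from tumors left out, 86 of 92 main results moved by less than the spread between tumors or kept their count within 1.5 times. The exceptions were counts of calls. DESeq2 on recovered reads, where 94 of the members are present, gave 2 of them an adjusted p in ADU-S100 against untreated tumors, so its 0 calls there say little. It called 37 members in combination against untreated and 25 in anti-LTβR against untreated tumors. In combination against anti-LTβR tumors, where limma called 1, the replicate block gave 4 (2 higher, 2 lower), the joint fit of all 4 groups 2 (0 higher, 2 lower), edgeR 6 (3 higher, 3 lower) and DESeq2 8 (3 higher, 5 lower), and the cause was not tested. With the replicate block the other comparisons gave 27 and 11 calls for combination and anti-LTβR against untreated tumors. Whether equal numbers pair the tumors was not settled. Correlations of same-numbered deviations were above 0.1 for 4, 2, 5 and 5 of 8 pairs in the 4 comparisons. Their means were 0.0007, -0.09, 0.17 and 0.19. Of 410 values for named genes 387 kept direction and call, 12 lost the call and 10 gained it. Ighv1-34 in anti-LTβR against untreated tumors turned from 1.16 to -0.88 with edgeR, and neither value was called.

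With each tumor left out in turn, calls ran from 12 to 29 (combination against untreated), 6 to 15 (anti-LTβR against untreated), 0 to 0 (ADU-S100 against untreated) and 0 to 2 (combination against anti-LTβR), and log2 differences of the sums from 1.63 to 2.14, 1.03 to 1.57, -0.75 to -0.21 and 0.35 to 0.87. Genes near 3 counts are limited by depth, and an Ighv gene with close relatives by how reads were split.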

Other observations

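Of the 5 libraries of the other experiment that carry the combination in all their labels, the remaining 2 had Ighv sums of 1050 and 4623 in the larger table. The other 15 carry the combination in one label and the control, ADU-S100 or anti-LTβR in another, so they were placed in no group, and their sums ran from 441.8 to 46444. In the library with 46444 the leading gene was Ighv11-2, with 17.0% of the Ighv counts.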
